A study of Mus musculus with 6 samples.

Results

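The genes described here are the cyclins and cyclin-dependent kinases (CDKs) of the division cycle, the regulators of these kinases, the E2F factors and the Rb family, 44 genes of the 49315 in the count table. They are a list of names from these families, which leaves out some relatives such as Cdkn1a, and fall into 7 role groups. The rule uses no measured value, but the list was drawn up with earlier results of these data known. RNA from RAW264.7 cells, a macrophage-like line from mouse of wild-type genotype, was sequenced in bulk 24 h after addition of SKI-II at 4 μg/mL or of its vehicle DMSO. SKI-II is known as an inhibitor of sphingosine kinases. There were 3 libraries of each condition, all from 1 cell line. The labels do not say how they relate, and the study's methods treat the cells as for quantitative PCR, where replicates are called biological. The test was the quasi-likelihood test of edgeR, a gene was called when its adjusted p was below 0.05, and normalized counts are read counts put on the scale of the mean library.

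Progress through the cell cycle is driven by CDKs, which act only when bound to a cyclin. In G1, the D-type cyclins with CDK4 or CDK6 and the E-type cyclins with CDK2 phosphorylate the pocket proteins RB1, RBL1 (p107) and RBL2 (p130), which releases E2F factors to transcribe the genes of DNA replication. Cyclin A2 and the B-type cyclins then act in S phase, G2 and mitosis, with CDK1 held back by the WEE1 family and switched on by the CDC25 phosphatases. The genes of G2 and mitosis are transcribed under B-MYB, FOXM1 and the MuvB core, which joins RBL1 or RBL2 and E2F4 in the repressive DREAM complex of resting cells. RAW264.7 is a transformed line that divides in culture, and many of these genes are known to be transcribed mainly in dividing cells.

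The totals lay between 12495957 and 20050677 counts per library. Of 10 macrophage markers, all were tested, 3 were lower and 2 were higher, and their summed level was 142300 to 207300 normalized counts with DMSO and 91140 to 129100 with SKI-II. Lyz2, named after its values were seen, carried this fall, and the other 9 markers summed to 51760 to 56750 with DMSO and 62750 to 67850 with SKI-II. Among these 9, Adgre1 and Itgam were called lower, at 52.8% and 52.4% of their DMSO means. Those called higher were Cd14, from a mean of 7668 to 20424 normalized counts, and Fcgr1, from 909 to 4106. The higher sum of the 9 thus rests mostly on Cd14. Markers of T cells, B cells and fibroblasts summed to between 0 and 21.2 normalized counts in any library, and all 5 epithelial markers were at 0. The share of mitochondrial counts was 1.07% to 1.25% with DMSO and 1.38% to 1.71% with SKI-II, and the part of these differences in the results was not tested. In bulk RNA, fewer cells in a given phase of the cycle and less of a transcript in each cell cannot be told apart.

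Of the 44 members, 43 had enough reads for a test. With SKI-II, 30 of them were lower, 2 were higher and 11 were not called. Over all 12274 genes tested, 19.7% were lower and 18.4% higher, against 69.8% of the tested members lower. Lower by more than 1 on the log2 scale were 21 members, 48.8% of those tested, where 7.44% of all tested genes were. No member was higher by more than 1, against 8.28% of all genes. The median log2 fold change of the tested members was -0.98, with 0.004 as the median of all tested genes. In 32 members every SKI-II library was below every DMSO library and in 2 every one was above, where the shares over all genes were 25.5% and 24.8%. The fitted changes reached from -2.77 for Ccna2 to 0.84 for Cdk7. Cdkn1c, which encodes the CDK inhibitor p57, was the member without a test, with counts of 0, 0 and 1 with DMSO and 0 in all SKI-II libraries.

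**Figure D1:**
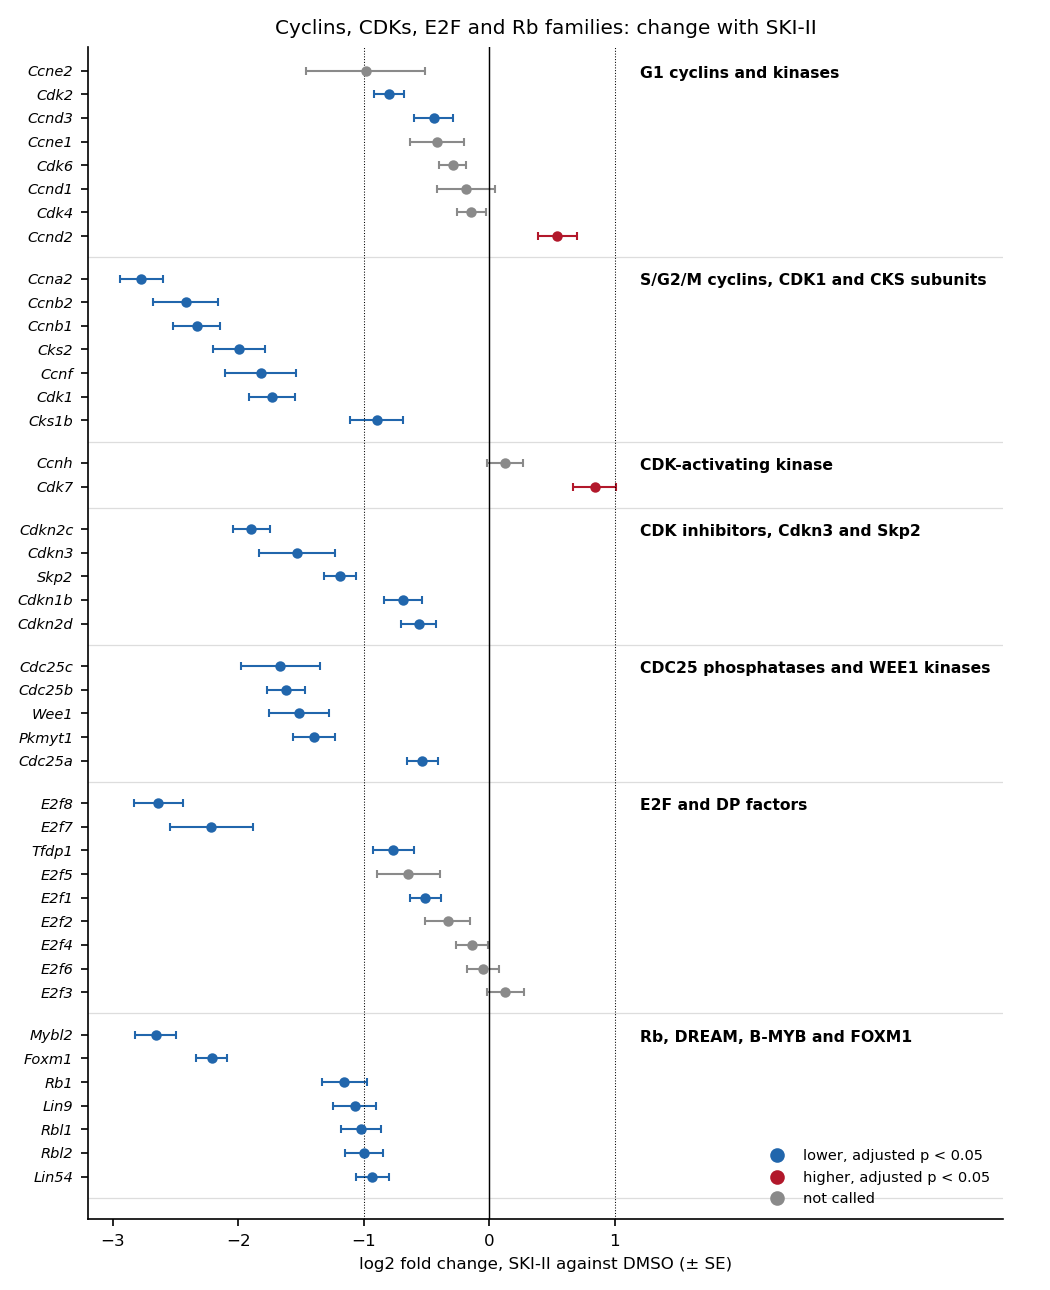
Log2 fold change of the 43 tested members (horizontal axis, SKI-II against DMSO, bars ± SE), by role group, with dotted lines at -1 and 1. The groups of S, G2 and M, of inhibitors, of CDC25 and WEE1 and of the Rb family hold only genes that were lower, from -2.77 to -0.53, and the G1 and E2F groups hold 10 of the 11 genes that were not called.

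Of the 8 G1 cyclins and their kinases 2 were lower, 1 was higher and 5 were not called, with a median log2 fold change of -0.36. The share that was lower, 25%, is near the 19.7% of all tested genes. Ccnd2, encoding cyclin D2, had 2745, 2106 and 2292 normalized counts in DMSO replicates 1, 2 and 3 and 2991, 4134 and 3279 in the SKI-II replicates in the same order. All SKI-II libraries were above all DMSO libraries, at a log2 fold change of 0.54 ± 0.15 (SE) and an adjusted p of 0.020. Without DMSO replicate 2 the change was 0.45 with an adjusted p of 0.105 and without SKI-II replicate 2 it was 0.40 with 0.0888, so the call depends on each of these libraries. Cyclin D3 moved the other way. Ccnd3 had 1749, 1716 and 2045 normalized counts with DMSO and 1067.5, 1456 and 1528 with SKI-II, without overlap, a change of -0.44 ± 0.15 (SE) with an adjusted p of 0.0458. That call was lost when DMSO replicate 2 or 3 or SKI-II replicate 1 or 2 was left out, with adjusted p up to 0.119. The change itself was then -0.50, -0.36, -0.31 and -0.50 in the same order. Ccnd1, the cyclin D gene with the most reads per length, stood at 5077, 3026 and 2986 with DMSO and 2700, 4171 and 2908 with SKI-II. DMSO replicate 1 was far above the other DMSO libraries, the groups overlapped, and the fitted change of -0.18 became 0.10 without that library. Of the exon bases of Ccnd1, 23.4% also belong to a gene on the opposite strand.

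The kinases of the D-type cyclins were at high levels in both conditions. Cdk4 had 3868, 3678 and 3901 normalized counts with DMSO and 3181, 3744 and 3454 with SKI-II, overlapping, at -0.14 (95% interval -0.37 to 0.09, adjusted p 0.369). Cdk6 had 2991, 2759.5 and 2938 with DMSO and 2280.4, 2339 and 2478 with SKI-II. These libraries did not overlap, but the change of -0.29 ± 0.11 (SE) had an adjusted p of 0.0573. Cdk2, the partner of cyclins E and A, was the kinase of this group that was lower, from a mean of 876 ± 47.4 (SD, n = 3) to 504 ± 17.2, at -0.80 ± 0.12 (SE) and an adjusted p of 0.000776. Neither E-type cyclin was called. Ccne1 had 592, 395 and 346 with DMSO and 283, 382 and 332 with SKI-II, at -0.42 (adjusted p 0.153), and at -0.17 without DMSO replicate 1. Ccne2 (chr4:11191351-11204779, GRCm38) had 209.8, 109.9 and 98.03 with DMSO and 76.1, 112 and 25.3 with SKI-II, the lowest fitted change of the group at -0.98, with a 95% interval of -1.92 to -0.05 and an adjusted p of 0.133. DMSO replicate 1 was the highest library for both genes, and SKI-II replicate 3 held 31 reads of Ccne2 against 117 in replicate 2. Leaving out single libraries moved Ccne2 between -1.48 and -0.57.

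All 7 genes of the S, G2 and M group were lower, 6 of them by more than 1 and 3 by more than 2 on the log2 scale, with a median of -1.99. Ccna2 (chr3:36564865-36572150), which encodes cyclin A2, had the lowest fold change of all members. Its normalized counts were 1677, 1368 and 1336 with DMSO and 165.6, 232 and 241 with SKI-II. Every SKI-II library was far below every DMSO library, and the change was -2.77 ± 0.17 (SE) with an adjusted p of 8.7e-06. The mitotic cyclins followed. Ccnb1 was 5.04-fold lower in mean normalized counts and Ccnb2 5.38-fold lower, at -2.33 ± 0.19 and -2.42 ± 0.26 (SE). Cdk1, their kinase, fell from 1236 ± 180 (SD, n = 3) to 371 ± 84.6 normalized counts, at -1.73 ± 0.18 (SE). Ccnf, an F-box cyclin that marks proteins for degradation, was at -1.82 ± 0.28, with DMSO replicate 1 at 1307 normalized counts against 691 and 583 in the others. Without that library the change was -1.40.

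The small CKS subunits, which bind CDKs and help them reach their substrates, did not fall alike. Cks2 went from 441 ± 48.4 (SD, n = 3) to 110 ± 27.9 normalized counts, at -1.99 ± 0.21 (SE). Cks1b, which also serves SKP2 in the degradation of p27, had 1202.5, 1381 and 1621 with DMSO and 501, 890.3 and 864 with SKI-II. These did not overlap, and the change of -0.90 ± 0.21 (SE), with an adjusted p of 0.00853, was the smallest fall of the group. Adjusted p for the other 6 genes lay between 8.7e-06 and 0.00102.

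The CDK-activating kinase, with only the 2 members Cdk7 and Ccnh, was the role group with no member lower. A group of 2 is too small to set against the 19.7% of all tested genes that were lower. Cdk7 (chr13:100702631-100730939), whose product phosphorylates CDKs in their activation loop and is also part of the transcription factor TFIIH, had 371, 354 and 255 normalized counts with DMSO and 569.5, 654 and 532 with SKI-II. All SKI-II libraries were above all DMSO libraries, a rise of 0.84 ± 0.17 (SE), 1.79-fold in the means, with an adjusted p of 0.00423, and it was called under all 13 other settings tried. Its partner Ccnh, encoding cyclin H, had 645, 665 and 618 with DMSO and 594, 703 and 802 with SKI-II. The groups overlapped, and the change of 0.12 had a 95% interval of -0.15 to 0.40 and an adjusted p of 0.523.

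The inhibitor genes Cdkn1b, Cdkn2c and Cdkn2d were lower. All 5 tested genes of their group, which also holds the CDK phosphatase gene Cdkn3 and Skp2, passed the test, with a median of -1.19. Cdkn1a, the inhibitor gene with the most reads, is not in the group and was not called, with values given among the partners. Cdkn2c (chr4:109660876-109667189), encoding p18 of the INK4 family that binds CDK4 and CDK6, had 664, 586 and 645 normalized counts with DMSO and 189, 159 and 161 with SKI-II. The SKI-II libraries lay close together and far below the DMSO libraries, at -1.90 ± 0.15 (SE) with an adjusted p of 1.9e-05. Its relative Cdkn2d, encoding p19, showed the smallest fall of the group, from 739, 801 and 953 to 537, 549.6 and 600.5, at -0.56 ± 0.14 (SE) and an adjusted p of 0.00985. Cdkn1b, encoding p27, and Skp2, the ubiquitin ligase subunit that marks p27 for degradation, were both lower. Cdkn1b was at -0.69 ± 0.15 (SE) and Skp2 at -1.19 ± 0.13 (SE). Cdkn3 was at -1.53 ± 0.31 (SE), with 28 reads in SKI-II replicate 1 against 64 and 82 in the other SKI-II libraries.

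The enzymes that switch CDK1 on and those that hold it back were lower together. All 5 genes of the CDC25 and WEE1 group passed the test, 4 by more than 1 on the log2 scale, with a median of -1.52. Among the activating phosphatases, Cdc25c had 315, 226 and 229 normalized counts with DMSO and 42.5, 116 and 82.3 with SKI-II. The groups did not overlap, SKI-II replicate 1 was lowest, and the change was -1.67 ± 0.32 (SE), adjusted p 0.00295. Cdc25b, the most abundant of the CDC25 genes per exon length, was at -1.62 ± 0.15 (SE). Cdc25a, which acts already at the start of S phase, fell least, from 711, 661 and 719.9 to 479, 453 and 514, at -0.53 ± 0.13 (SE) with an adjusted p of 0.00831. The inhibitory kinases were at -1.52 ± 0.24 (SE) for Wee1 and -1.39 ± 0.17 (SE) for Pkmyt1.

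Among the E2F genes the atypical repressors E2f7 and E2f8 had the lowest fold changes, and no test compared the classes of the family. Of the 9 genes of this group 4 were lower, none was higher and 5 were not called, with a median of -0.51. The share that was lower was 44.4%, where 19.7% of all tested genes were lower and 18.4% higher. E2f8 (chr7:48866429-48881596) had 959.6, 734 and 611 normalized counts with DMSO and 131, 134 and 106 with SKI-II. The DMSO libraries were more scattered than the SKI-II libraries, with no overlap, and the change was -2.64 ± 0.19 (SE) with an adjusted p of 1.7e-05. E2f7 followed at -2.22 ± 0.33 (SE), on 26 to 48 reads per SKI-II library. Of the activators, E2f1 was at -0.51 ± 0.12 (SE) with an adjusted p of 0.00958. E2f2 had 608, 610.3 and 822 with DMSO and 557, 628 and 438 with SKI-II, overlapping, at -0.33 (adjusted p 0.171). E2f3 had 425, 349 and 456 with DMSO and 445, 478 and 424 with SKI-II, the highest fold change of the group at 0.13, with a 95% interval of -0.17 to 0.42 and an adjusted p of 0.534.

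The repressors E2f4, E2f5 and E2f6 were not called either. E2f4, the E2F of the DREAM complex, had 1725, 1583 and 1424 normalized counts with DMSO and 1300.2, 1533 and 1469.8 with SKI-II, at -0.14 (95% interval -0.38 to 0.11, adjusted p 0.427). E2f5 had 114, 126 and 157 with DMSO and 67.1, 78.2 and 107.5 with SKI-II. All SKI-II libraries were below the DMSO libraries, yet the change of -0.65 ± 0.25 (SE) had an adjusted p of 0.0690. E2f6, a repressor that acts without pocket proteins, had 618, 565 and 578 with DMSO and 523, 609 and 574 with SKI-II, with a fitted change of -0.05 and a 95% interval of -0.30 to 0.20. Tfdp1, whose product DP1 pairs with E2F1 to E2F6 to bind DNA, was lower at -0.76 ± 0.16 (SE), adjusted p 0.00486.

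**Figure D2:**
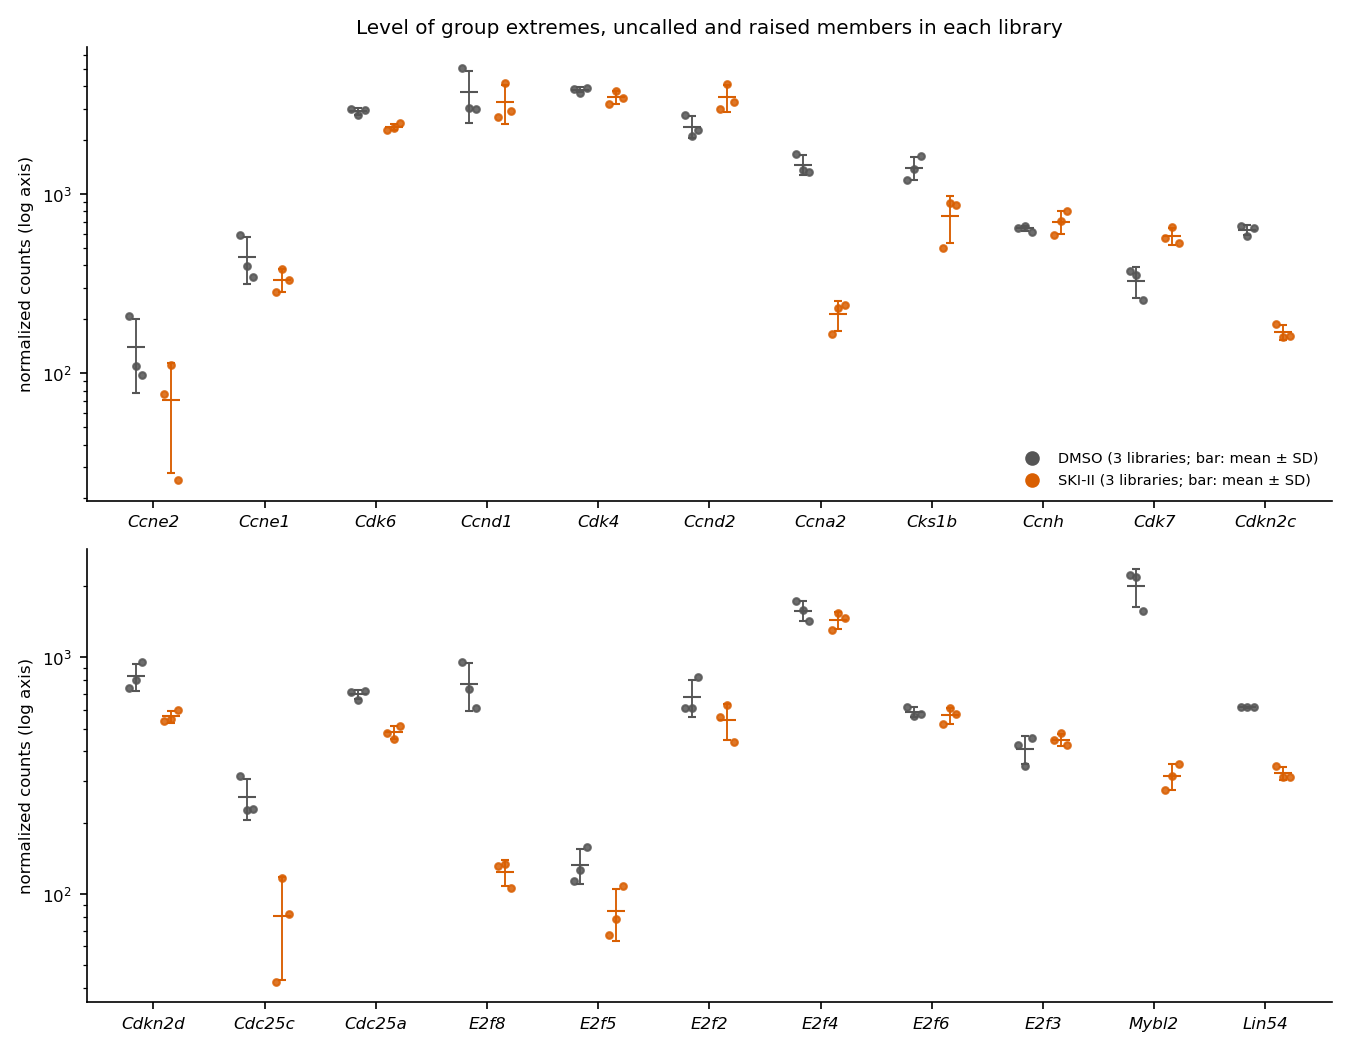
Normalized counts (log axis) in each DMSO and SKI-II library for the lowest and highest tested member of each role group and for every member that was higher or not called; points are libraries and bars the mean ± SD. The SKI-II libraries of Ccna2, Cdkn2c, E2f8 and Mybl2 lie far below those of DMSO, Cdk7 and Ccnd2 lie above, and Cdk4, E2f4 and E2f6 overlap.

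All 7 genes of the Rb, DREAM, B-MYB and FOXM1 group were lower, in a strong and a moderate set. The 2 transcription factors that activate G2 and M genes fell by more than 2 on the log2 scale. Mybl2 (chr2:163054687-163084688), encoding B-MYB, had 2220.4, 2189.7 and 1573 normalized counts with DMSO and 274, 315 and 355 with SKI-II. DMSO replicate 3 was the lowest DMSO library and still far above all SKI-II libraries, and the change was -2.66 ± 0.17 (SE) with an adjusted p of 9.1e-06. Foxm1 went from 2738 ± 236 (SD, n = 3) to 589.8 ± 45.2, at -2.21 ± 0.12 (SE). The pocket protein genes Rb1, Rbl1 and Rbl2 stood at -1.15 ± 0.18, -1.02 ± 0.16 and -1.001 ± 0.15 (SE), the last just past the threshold of 1. Opposite-strand genes share 14.9% of the exon bases of Rb1 and 21% of those of Rbl2. Of the MuvB genes among the members, Lin9 was at -1.07 ± 0.17 (SE). The other MuvB genes, Lin37, Lin52 and Rbbp4, are not members and were not called, with fitted changes of 0.42, -0.41 and -0.26, given after their values were seen. Lin54, the DNA-binding subunit, had 619.7, 614 and 614 with DMSO and 346, 311 and 313 with SKI-II, a tight separation with the highest fold change of the group, -0.93 ± 0.13 (SE) and an adjusted p of 0.000494.

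The 21 members lower by more than 1 kept between 14.6% and 49.9% of their mean DMSO level. The upper end of this range was set by the threshold that chose these genes. The median over these genes was 27.3%, 30.1% and 30.8% of the DMSO mean in SKI-II replicates 1, 2 and 3, and 111%, 95.2% and 89.7% in the DMSO replicates. Over all 30 lower members the median was 38.55%, 37.96% and 40.71% in SKI-II replicates 1, 2 and 3. SKI-II replicate 1 was the lowest SKI-II library for 12 of the 21 genes, replicate 2 for 4 and replicate 3 for 5. The test asks whether a change differs from 0. When the change was instead tested against a log2 fold change of 1, 12 of the 21 passed, namely Ccna2, Ccnb1, Ccnb2, Ccnf, Cdk1, Cks2, Cdkn2c, Cdc25b, E2f7, E2f8, Mybl2 and Foxm1.

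**Figure D3:**
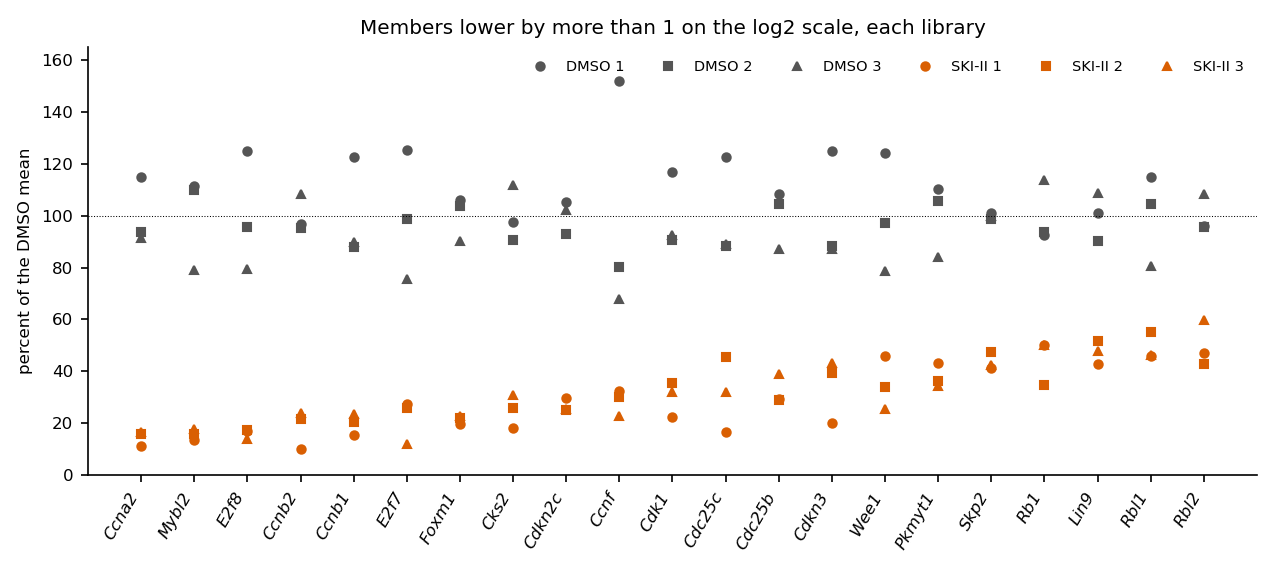
Level of the 21 members lower by more than 1 on the log2 scale in each library, as percent of the gene's DMSO mean, ordered by fold change, with DMSO in grey and SKI-II in orange. No SKI-II point reaches a DMSO point, and the median over genes is 27.3% to 30.8% in the SKI-II libraries. The genes were chosen by their fall in these same libraries.

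Since paralogs within some families changed by different amounts, their shares of the family were compared, each gene as normalized counts per kb of exon. The shares come from the same counts as the fold changes and are not separate evidence. With 3 libraries against 3 an exact two-sided permutation test cannot give a p below 0.1, and that value is reached where the groups do not overlap. Cyclin D2 made up 18.6%, 21.1% and 21.9% of the D-type cyclins in the DMSO replicates and 31.4%, 29.5% and 30.6% in the SKI-II replicates (exact permutation p = 0.1). The shares of Ccnd1 and Ccnd3 overlapped (exact permutation p = 0.2 for each). The whole D-type pool was 1247 ± 280 (SD, n = 3) per kb with DMSO and 1215 ± 248 with SKI-II and overlapped. For the CKS subunits the pool fell from 1882 ± 242 to 826.9 ± 230 per kb, while the share of Cks1b was 66.0% ± 2.51 with DMSO and 80.6% ± 1.95 with SKI-II, without overlap. For the CDC25 genes the pool fell from 889.6 ± 91.0 to 320.0 ± 46.2 per kb, and the share of Cdc25a was 9.85% ± 1.31 with DMSO and 18.9% ± 1.70 with SKI-II, also without overlap. With the longest transcript as the length the difference in the Cdc25a share was 12.8 percentage points.

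Among the E2F genes, E2f4 was the largest share in both conditions, at 42.9% ± 2.01 (SD, n = 3) of the pool with DMSO and 50.2% ± 2.10 with SKI-II. Its own level was not called, with means of 643 per kb with DMSO and 585 with SKI-II, so the higher share is not a higher level. The share of E2f8 was 9.36% ± 1.63 with DMSO and 1.95% ± 0.243 with SKI-II, and the E2F pool went from 1499 ± 82.7 to 1166 ± 76.8 per kb. Neither E2f4 nor E2f8 shares overlapped between the conditions, and those of E2f3, E2f6 and E2f7 did not either. The share of E2f1 was 20.2% ± 0.957 with DMSO and 18.2% ± 1.30 with SKI-II, where the lowest DMSO and the highest SKI-II library both round to 19.56%, and with the longest transcript as the length these shares overlapped. In the E-type cyclins both the shares and the pool overlapped, the pool at 206.8 ± 66.6 per kb with DMSO and 145.2 ± 26.2 with SKI-II. In the B-type cyclins and the pocket proteins the shares overlapped while the pools did not. The B-type cyclin pool fell from 1653 ± 103 to 313 ± 108 per kb, with Ccnb2 at 69.2% ± 4.77 with DMSO and 66.4% ± 6.28 with SKI-II (exact permutation p = 0.5). The pocket protein pool fell from 384 ± 12.0 to 186 ± 10.3 per kb, with Rbl1 at 43.7% ± 6.61 and 44.8% ± 6.68 (exact permutation p = 0.9). These overlaps do not show that the shares were equal.

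**Figure D4:**
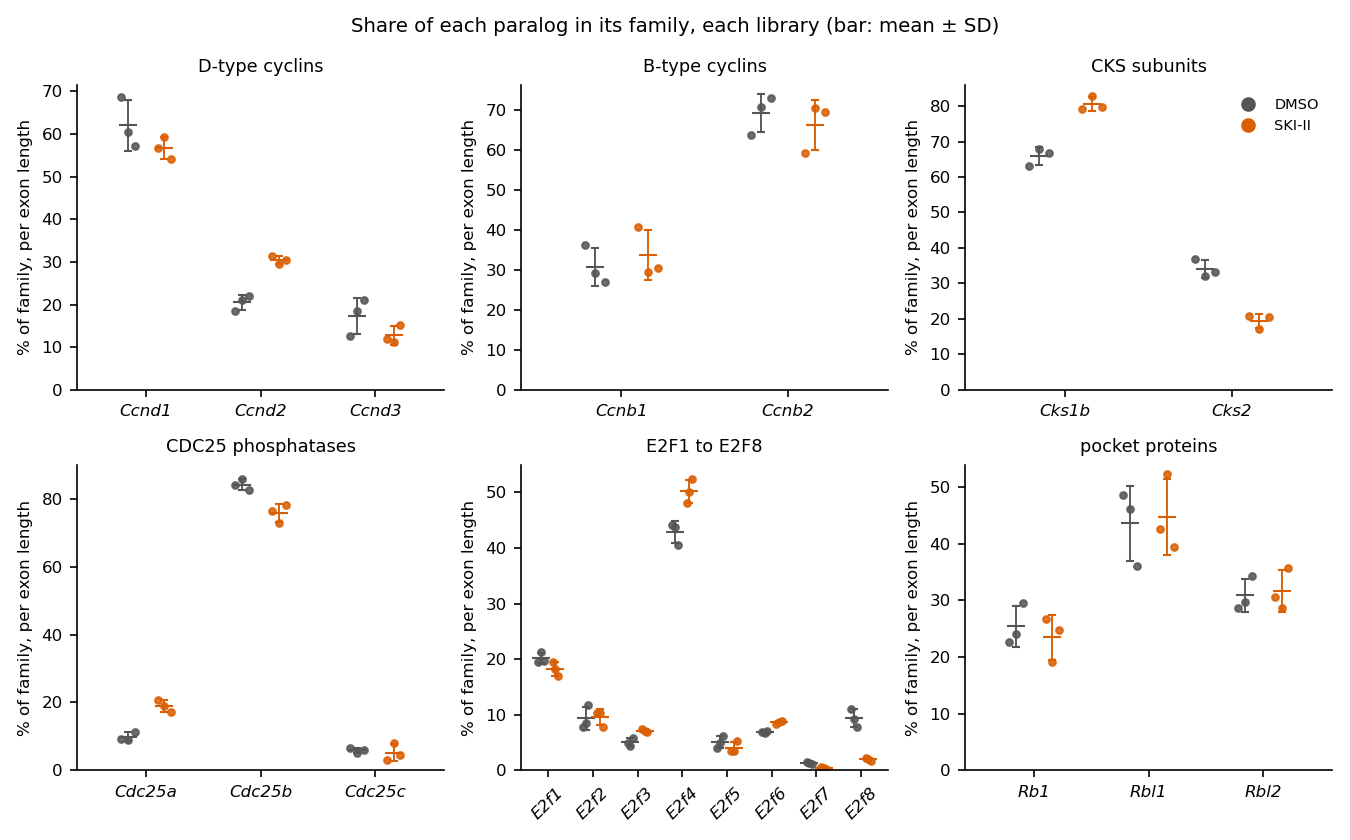
Share of each paralog in its family (percent of the family's normalized counts per kb of exon) in each DMSO and SKI-II library, with bars for the mean ± SD. The shares of Ccnd2, Cks1b, Cdc25a and E2f4 are higher in every SKI-II library than in every DMSO library, and those of the B-type cyclins and pocket proteins overlap. A higher share is not in itself a higher level.

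Promoter windows were read for the members, 250 bases before to 50 after the transcription start, from RefSeq on GRCm38.p6. The reference table held a window for 30 of the 44 members, 7 of them with more than 1, and a gene was counted when any of its windows held the motif. They were searched on both strands for E2F motifs, with TTCCCGC as the first word searched, TTCGCGC as the second word searched, TTGCCGC as the third and TTGGCGC as the fourth word, for the cell cycle homology region or CHR, written TTTGAA or TTCGAA (the latter reads the same on both strands), to which the LIN54 subunit of MuvB binds, and for the CCAAT box (CCAAT), the site of NF-Y. An E2F motif was in 36.7% of the 30 members and 10.9% of all 27025 genes with a window, a CHR motif in 40% and 21.7%, and a CCAAT box in 66.7% and 41.1%. Of the 14 members with a window that were lower by more than 1, 6 had an E2F motif, 8 a CHR motif, 11 a CCAAT box and 7 both of the last pair. Of the other 16 members, 5 had an E2F motif, 4 a CHR motif, 9 a CCAAT box and 4 both, and 9.65% of all genes held both. In the 150 bases before the start alone, the 14 members that were lower by more than 1 held 6 with an E2F motif, 5 with a CHR motif, 9 with a CCAAT box and 4 with both, and the other 16 held 4, 3, 7 and 3. Over all genes the shares in this shorter window were 6.35%, 11.2%, 27.7% and 3.37%. These are counts of letters, not of bound sites.

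The windows below belong to the gene with the lowest fold change in the E2F group, E2f8 (chr7:48881547-48881846, minus strand) and in the Rb and DREAM group, Mybl2 (chr2:163054385-163054684, plus strand), and to the gene with the highest of all, Cdk7 (chr13:100730893-100731192, minus strand). Cdk1 (chr10:69352863-69353162, minus strand) and Ccnb2 (chr9:70421505-70421804, minus strand) were added after their values were seen, because they hold CHR motifs and CCAAT boxes side by side. Each is written 5′ to 3′ on the strand of the gene, with the motifs found in capitals and the transcription start at the base after the first 250.
E2f8: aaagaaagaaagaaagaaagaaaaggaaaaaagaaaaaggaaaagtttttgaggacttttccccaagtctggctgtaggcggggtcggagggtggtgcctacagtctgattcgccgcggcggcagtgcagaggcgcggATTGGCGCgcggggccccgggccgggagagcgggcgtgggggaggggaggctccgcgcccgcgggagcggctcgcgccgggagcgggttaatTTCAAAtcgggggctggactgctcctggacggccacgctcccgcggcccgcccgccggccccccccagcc
Cdk1: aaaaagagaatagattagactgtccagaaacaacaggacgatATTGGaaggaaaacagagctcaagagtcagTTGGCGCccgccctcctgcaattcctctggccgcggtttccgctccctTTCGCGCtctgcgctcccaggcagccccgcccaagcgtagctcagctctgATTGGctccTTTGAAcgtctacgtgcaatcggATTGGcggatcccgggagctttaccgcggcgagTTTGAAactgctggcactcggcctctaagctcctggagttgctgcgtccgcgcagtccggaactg
Ccnb2: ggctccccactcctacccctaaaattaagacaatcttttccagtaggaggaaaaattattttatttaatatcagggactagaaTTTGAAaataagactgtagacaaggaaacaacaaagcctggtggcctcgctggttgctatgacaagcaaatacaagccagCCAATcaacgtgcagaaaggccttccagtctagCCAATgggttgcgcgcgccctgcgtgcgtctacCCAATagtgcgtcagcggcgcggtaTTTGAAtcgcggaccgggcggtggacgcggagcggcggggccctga
Mybl2: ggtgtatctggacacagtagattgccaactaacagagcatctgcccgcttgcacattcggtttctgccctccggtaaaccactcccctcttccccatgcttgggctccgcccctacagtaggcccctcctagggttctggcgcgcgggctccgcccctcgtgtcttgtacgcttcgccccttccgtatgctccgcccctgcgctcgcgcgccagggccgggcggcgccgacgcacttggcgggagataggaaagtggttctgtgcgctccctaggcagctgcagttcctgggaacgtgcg
Cdk7: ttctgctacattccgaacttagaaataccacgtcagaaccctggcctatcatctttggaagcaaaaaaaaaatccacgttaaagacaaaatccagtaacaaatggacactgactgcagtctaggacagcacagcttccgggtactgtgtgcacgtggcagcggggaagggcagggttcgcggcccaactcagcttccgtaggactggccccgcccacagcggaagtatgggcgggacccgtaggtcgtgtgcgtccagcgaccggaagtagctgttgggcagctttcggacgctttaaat
E2f8 held a CCAAT box on the reverse strand that overlaps an E2F motif, and a reverse CHR motif 20 to 15 bases before the start. Cdk1 held E2F motifs, 3 reverse CCAAT boxes and CHR motifs that begin 71 and 15 bases before the start. Ccnb2 held 3 CCAAT boxes, beginning 87, 54 and 21 bases before the start, with CHR motifs on either side of them. None of the searched letters were in the windows of Mybl2 and Cdk7, which says only that these words are absent there.

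The other genes of the pathway were counted in 5 further lists. Of 20 genes of the G1/S programme driven by E2F, 19 were lower and none higher, with a median log2 fold change of -1.79. The lowest was Mcm5, a subunit of the replicative helicase, with 5121, 5001 and 4279.6 normalized counts with DMSO and 569.5, 853 and 646 with SKI-II, at -2.80 ± 0.16 (SE). The called gene with the smallest fall was Slbp, which binds histone mRNA, at -0.65 ± 0.23 (SE) with an adjusted p of 0.0461. Of 20 genes of the G2/M programme of B-MYB and FOXM1, all 20 were lower and 16 by more than 2, with a median of -2.20, from Aurkb, the mitotic kinase Aurora B, at -2.76 ± 0.16 (SE) to Cenpe, a kinetochore motor, at -1.35 ± 0.15 (SE). Both lists were made with earlier results of these data known.

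Among 23 tested genes of the SCF and APC/C ubiquitin ligases, which degrade cyclins and inhibitors, 9 were lower and 1 higher. Their median was -0.30, and 39.1% were lower, where 19.7% of all tested genes were lower and 18.4% higher. The lowest was Ube2c, the conjugating enzyme of the APC/C, at -2.44 ± 0.18 (SE), and the gene that was higher was Fbxw7, the SCF receptor for cyclin E, at 0.56 ± 0.13 (SE). Of 15 tested partners of the Rb, DREAM and inhibitor families, 4 were lower and 2 higher, with 26.7% lower against 19.7% of all tested genes. Rbbp7, a histone-binding protein known as RbAp46, was lowest at -1.31 ± 0.13 (SE), and Cables2 was highest at 1.26 ± 0.14 (SE). Of 26 other cyclins and CDKs, most of which act in transcription or outside the cycle, 1 was lower and 7 were higher, where 18.4% of all tested genes were higher, with a median of 0.18. The one that was lower was Ccng2, encoding cyclin G2, at -1.84 ± 0.40 (SE), and Cdk10 was the highest of those called at 0.71 ± 0.18 (SE). Named after their values were seen, Cdkn1a, encoding the inhibitor p21, had a mean of 6502 ± 1561 (SD, n = 3) normalized counts with DMSO and 6699 ± 1455 with SKI-II with a fitted change of 0.04 (95% interval -0.36 to 0.45, adjusted p 0.889), and Cdkn2a and Cdkn2b had no count in any library.

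**Figure D5:**
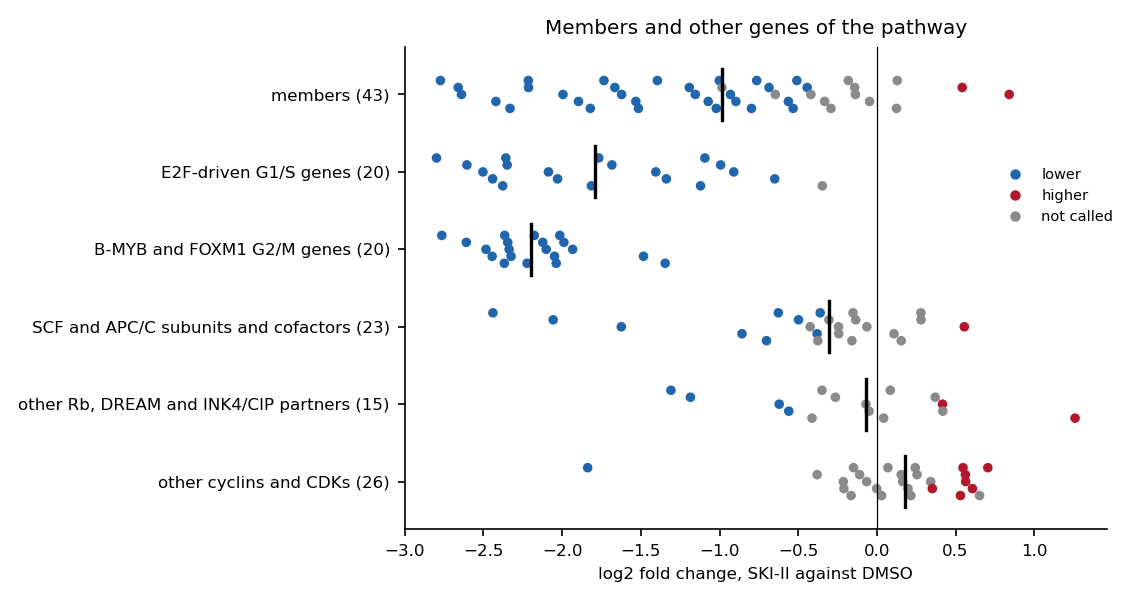
Log2 fold change (horizontal axis, SKI-II against DMSO) of every tested member and of the tested genes of 5 other lists, with list sizes in brackets; points are genes, coloured by call, and the black line is the median. The medians are -0.98 for the members, -1.79 and -2.20 for the G1/S and G2/M programmes, and 0.18 for the other cyclins and CDKs.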

How the data were processed

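RNA-seq was analysed from RAW264.7 cells, 3 libraries with SKI-II (4 μg/mL, 24 h) and 3 with DMSO, grouped by the sample labels, with the dose from the study's methods and the time from a figure legend of the study. The authors selected poly(A) RNA and deposited raw read counts per Ensembl gene. The submitters' processing notes name Trimmomatic 0.36, STAR 2.5.2b, featureCounts of Subread 1.5.2 and DESeq2. Build, annotation release and strandedness were not given in the sources used. A gene that shares exon bases with one on the opposite strand is therefore uncertain, as 9 members do for over 10% of their bases. These are Ccnd1, Ccne2, Cdk4, Ccna2, Cdkn1c, Cdc25c, E2f8, Rb1 and Rbl2. The members and lists were chosen with earlier results of these data known. Gene names and positions came from GENCODE M21 (GRCm38), which named 49056 of the 49315 identifiers, and promoters from RefSeq.

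The test was the quasi-likelihood test of edgeR 4.0.16 (R 4.3.3), after TMM scaling, with its default expression filter (minimum count 10, minimum total 15) and Benjamini-Hochberg adjustment over 12274 genes. Normalized counts are counts per TMM-scaled library times the mean of these sizes, 16042438. The SE comes from the fitted weights and the moderated dispersion, and 95% intervals are 1.96 SE either side. Totals were 12495957 to 20050677 counts per library. Libraries of a group differed by more than sampling noise (chi-square per degree of freedom 15.4 to 58.1), and each was counted as 1 replicate. This spread cannot show whether they came from separate cultures. The pseudogene copies of Ccnd3, Ccnb1 and Ccnb2 had at most 20 counts in a library. All columns of the table were used. Values in every library are given for the lowest and the highest tested member of each role group, for those not called, called higher or not tested, and other genes are named where they are the lowest or highest called of their list. Promoters are printed for the lowest tested member of the G1, S/G2/M, CDC25/WEE1, E2F and Rb/DREAM groups where the reference table holds it, for the member with the highest fold change, and for Cdk1 and Ccnb2, added later. Alternatives were DESeq2 1.42.0, limma-voom 3.58.1, RLE scaling, library size alone, other filters, each library left out, the replicate number as a block, a threshold test at 1 log2, other transcript lengths and a shorter promoter window. The programs were tested on simulated data.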

Additional observations from a re-analysis of the deposited data

How the results depend on the processing

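Each of the 43 tested members was refitted under 13 other settings, which gave 559 values, and 546 of them kept their direction and side of the threshold. For 36 members that held throughout. Leaving out single libraries gave 29 to 31 members lower, 1 to 2 higher, 19 to 21 lower by more than 1 and a median of -0.998 to -0.942. Tested against a log2 fold change of 1, 12 members were lower. Over the 13 other settings, Ccnd1 lay between -0.40 and 0.10 and E2f6 between -0.0962 and 0.0041. The sign of Ccnd1 turned without DMSO replicate 1 and that of E2f6 without SKI-II replicate 1, and the cause was not tested. With the replicate number as a block, 33 members were lower, 2 higher and 22 lower by more than 1, with a median of -1.01. Ccne2, Cdk6 and E2f5 were called with the block, at adjusted p of 0.0358, 0.0403 and 0.0260. The deviations of same-numbered libraries correlated at 0.246, 0.010 and 0.458, and not every library correlated best with its own number, so the numbers were not taken as pairs. Ccne2 was also called with no filter (adjusted p 0.00189) and E2f5 without SKI-II replicate 3 (0.0312). Library size alone moved the median of all genes by -0.0026 and left the counts of the other lists within 1.5 times. The lowest libraries of Ccne2, E2f5, E2f7, Cdkn3 and Cdc25c held 31, 60, 26, 28 and 38 reads, and the part of depth in their errors was not tested.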
